A study of Mus musculus with 14 samples.

Results

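The 8 genes described here encode the 3 chains of complement C1q (C1qa, C1qb and C1qc), the activating Fc gamma receptors Fcgr1, Fcgr3 and Fcgr4, and the adaptors Fcer1g and Tyrobp. They were taken by symbol from a table of 45706 genes, by a rule that uses no measured value, although the set was proposed with earlier results of these data known. All 8 passed the filter on low counts that left 15674 genes for testing.

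C1q is the recognition protein of the classical complement pathway, which binds immune complexes, apoptotic cells and other targets, and in most tissues it is made by macrophages rather than by hepatocytes, which make most of the other complement proteins. Activating Fc gamma receptors bind the constant part of IgG. They signal through Fcer1g, the common gamma chain, whose ITAM (a paired tyrosine motif in its tail) recruits the kinase Syk once it is phosphorylated. Tyrobp, also called DAP12, is a related ITAM adaptor that serves Trem2 and other myeloid and NK cell receptors. Fcgr2b is the inhibitory member of the Fc gamma receptor family, and in liver it is known as a receptor of sinusoidal endothelial cells.

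Liver RNA was sequenced from male C57BL6/J mice that were 8 weeks old at the start. Mice of 3 groups received a MASH diet, named for metabolic dysfunction-associated steatohepatitis, for 16 weeks and for the 6 weeks of treatment that followed. MASH OAL mice (3 libraries, replicates 1, 2 and 4) were given C18:1-leucine in that time, MASH OA mice (4 libraries) the unconjugated fatty acid C18:1, and for MASH mice (3 libraries, replicates 2, 3 and 4) the labels name neither compound. CD mice (4 libraries) are taken to be those on standard chow, since the labels do not spell out the letters. The doses, the route, and whether MASH mice received a vehicle are not given clearly in the sources used here. No label says that replicates are separate animals, so p-values measure the spread between these libraries.

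Depth was 33821890 to 51107243 expected counts per library. The hepatocyte markers were high in every library, with a summed level of 39960 to 98400 CPM (counts scaled to a common library size) for 7 genes. Groups follow the sample titles. The treatment tag goes against the title for MASH OA replicate 1, tagged as diet only, and MASH OAL replicate 1, tagged OA, and the counts for the 8 genes and for the gene lists are also given without these libraries. The pancreas markers summed to 1015 CPM in MASH OAL replicate 2 and 218 CPM in CD replicate 2, against at most 7.68 CPM in the other 12 libraries. Leaving out either of these 2 libraries kept the call of every member in every comparison except one: without MASH OAL replicate 2, C1qb was no longer called against CD.

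All 8 genes were higher in MASH livers than in CD livers, between 2.04-fold for Fcgr3 and 4.43-fold for Fcgr1. Of all tested genes 20.4% were called higher in that comparison. In MASH OAL livers 7 of the 8 were lower than in MASH OA livers, by 1.94-fold for C1qa up to 2.45-fold for Fcgr1. Fcgr4 did not pass the test, and 8.89% of all tested genes were called lower. Neither compound moved a member past the threshold against MASH livers, although MASH OAL livers lay below MASH livers without overlap in 7 of the 8 genes. Among all tested genes 12.0% lay lower without overlap there. C1qb, Fcgr1, Fcer1g and Tyrobp were called higher in MASH OAL than in CD livers, where 10.2% of all tested genes were, and C1qb overlapped between these groups. Without both libraries whose labels disagree, C1qb and Tyrobp were no longer called there. With groups from the treatment tags, no member was called in this comparison or in MASH OAL against MASH OA livers. In these bulk samples, fewer cells of a type and less RNA per cell cannot be told apart.

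**Figure D1:**
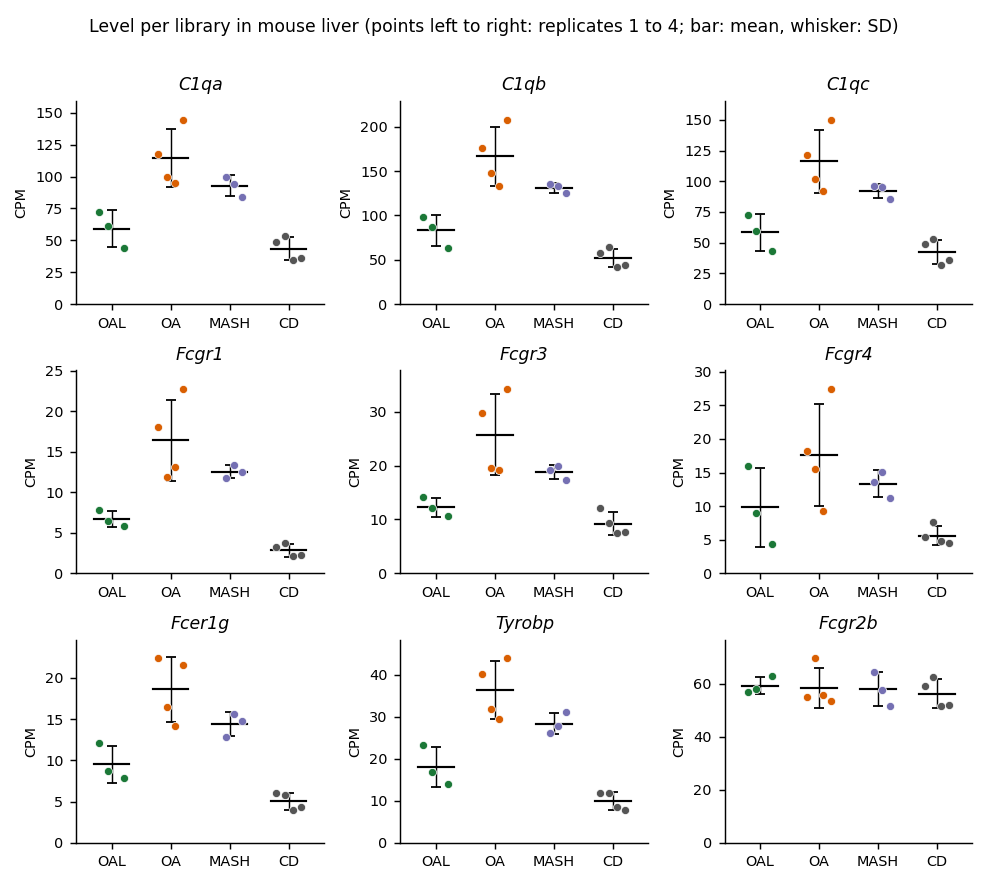
Level of the 8 genes and of Fcgr2b in each library, in CPM, for the MASH OAL, MASH OA, MASH and CD groups, with the mean and SD. In 8 panels the MASH libraries lie above all CD libraries, and in 7 of these the MASH OAL libraries lie below all MASH libraries, while Fcgr2b stays between 51.7 and 69.7 CPM in every library.

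The C1q genes lie side by side on the minus strand of chromosome 4 (GRCm38, GENCODE M21), all within 18675 bases. C1qb (ENSMUSG00000036905) spans chr4:136880129-136886187, C1qc (ENSMUSG00000036896) chr4:136889804-136893065 and C1qa (ENSMUSG00000036887) chr4:136895917-136898803, each with 3 exons. The promoter window of C1qb, the chain with the largest difference between MASH and CD livers, is shown from the RefSeq table of GRCm38.p6, chr4:136886151-136886450 on the minus strand, from 250 bases before to 50 after the start of transcription. Capitals mark the letters GGAAGT and GAGGAA on either strand, purine-rich words like those bound by the macrophage factor PU.1.
C1qb: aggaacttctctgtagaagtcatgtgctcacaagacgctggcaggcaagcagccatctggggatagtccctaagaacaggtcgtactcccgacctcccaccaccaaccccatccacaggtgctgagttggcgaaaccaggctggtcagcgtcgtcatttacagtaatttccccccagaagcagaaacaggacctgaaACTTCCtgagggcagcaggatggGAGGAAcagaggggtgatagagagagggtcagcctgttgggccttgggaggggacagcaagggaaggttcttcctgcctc
GGAAGT lay at positions -53 to -48 and GAGGAA at -30 to -25 from the start. Over 32851 promoter windows of that length, 23.8% held GGAAGT and 28.3% held GAGGAA on either strand, so such matches are common. The window of C1qc also held both words, in the overlapping form ACTTCCTC.

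C1qb, which encodes the B chain, had 98.4, 87.2 and 63.5 CPM in MASH OAL livers, 176, 148, 133 and 208 CPM in MASH OA livers, 136, 133 and 125 CPM in MASH livers, and 58, 63.9, 41.5 and 44.5 CPM in CD livers. Every MASH and MASH OA library lay above every CD library, and the MASH OAL libraries filled the space between, with replicate 4 below 1 CD library. Per kilobase of exon, C1qb was the most abundant of the 8 genes in all groups, at 76.3 ± 16.4 CPM per kb in MASH OAL, 153 ± 30.4 in MASH OA, 121 ± 5.24 in MASH and 47.8 ± 9.85 in CD livers (SD). C1qa, which encodes the A chain, had 72.4, 61.1 and 43.7 CPM in MASH OAL livers, 118, 99.8, 94.9 and 145 CPM in MASH OA livers, 99.9, 94.3 and 83.7 CPM in MASH livers, and 48.8, 53.2, 34.9 and 36.5 CPM in CD livers. C1qc, for the C chain, had 72.6, 59.8 and 42.8 CPM in MASH OAL livers, 122, 102, 92.3 and 150.3 CPM in MASH OA livers, 95.8, 94.96 and 85.8 CPM in MASH livers, and 48.8, 52.6, 32 and 35.6 CPM in CD livers. Both repeated the order of C1qb between groups, and in both MASH OAL replicate 4 fell among the CD libraries.

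MASH livers carried more RNA of all 3 chains than CD livers. In the fit over all genes (edgeR quasi-likelihood test, adjusted p), C1qb was 2.52-fold higher (log2 fold change 1.34 ± 0.18 (SE), adjusted p = 0.000179). C1qc was 2.18-fold higher (log2 fold change 1.13 ± 0.21 (SE), adjusted p = 0.001504), and C1qa 2.14-fold (log2 fold change 1.1 ± 0.19 (SE), adjusted p = 0.00102). MASH OAL livers had 83.05 ± 17.8 CPM of C1qb against 167 ± 33.1 CPM in MASH OA livers (SD, n = 3 and 4), a log2 difference of -1.0 ± 0.19 (adjusted p = 0.00662). For C1qa and C1qc that difference was -0.95 ± 0.20 (adjusted p = 0.00942) and -1.0 ± 0.22 (adjusted p = 0.0106). C1qa was 1.94-fold, C1qb 2.01-fold and C1qc 1.99-fold lower in MASH OAL livers.

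The chains kept a nearly fixed proportion between C1qc and C1qa, but not between C1qb and C1qa. The ratio of C1qc to C1qa, both in CPM per kb, was 0.531 ± 0.00764 in MASH OAL, 0.546 ± 0.0155 in MASH OA, 0.537 ± 0.0187 in MASH and 0.523 ± 0.0202 in CD livers (SD). Its level depends on the length used, since C1qc has 1931 merged exonic bases but 1154 distinct runs of 50 bases in its protein-coding transcripts. In plain CPM the means of C1qa and C1qc were close, at 59.1 and 58.4 in MASH OAL livers. The ratio of C1qb to C1qa was 1.3, 1.36 and 1.39 in MASH OAL livers, 1.43, 1.418, 1.34 and 1.38 in MASH OA livers, 1.299, 1.35 and 1.43 in MASH livers, and 1.14, 1.15, 1.14 and 1.17 in CD livers. All 10 libraries from the MASH diet lay above all 4 CD libraries in this ratio, MASH OAL included, although MASH OAL replicate 4 fell among the CD libraries in its C1qa and C1qc levels. This difference of ratios was chosen after its values were seen and was not tested.

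The Fc gamma receptor genes share less of their location. Fcgr4 (ENSMUSG00000059089, plus strand, chr1:171018920-171029761), Fcgr3 (ENSMUSG00000059498, minus strand, chr1:171051174-171064935) and Fcer1g (ENSMUSG00000058715, minus strand, chr1:171229572-171234365) lie with Fcgr2b (ENSMUSG00000026656, minus strand, chr1:170958617-170976547) in 275749 bases of chromosome 1. Fcgr1 (ENSMUSG00000015947) lies on the minus strand of chromosome 3, chr3:96282909-96293969, and Tyrobp (ENSMUSG00000030579) on the plus strand of chromosome 7, chr7:30413760-30417585. The windows of Fcgr1 (chr3:96293920-96294219, minus strand) and Fcgr4 (chr1:171018676-171018975, plus strand) are set beside that of Fcgr2b, which passed in no comparison (chr1:170976022-170976321, minus strand), with the same words in capitals.
Fcgr1: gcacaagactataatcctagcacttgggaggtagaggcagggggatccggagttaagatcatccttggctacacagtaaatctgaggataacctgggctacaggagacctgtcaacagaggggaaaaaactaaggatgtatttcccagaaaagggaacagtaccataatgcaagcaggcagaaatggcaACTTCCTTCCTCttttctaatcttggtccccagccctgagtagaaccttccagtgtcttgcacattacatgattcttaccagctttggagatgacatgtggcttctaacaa
Fcgr4: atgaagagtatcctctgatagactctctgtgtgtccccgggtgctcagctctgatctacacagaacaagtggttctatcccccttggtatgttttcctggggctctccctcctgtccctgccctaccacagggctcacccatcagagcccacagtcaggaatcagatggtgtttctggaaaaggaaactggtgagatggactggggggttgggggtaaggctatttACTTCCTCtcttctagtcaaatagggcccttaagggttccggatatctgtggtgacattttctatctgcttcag
Fcgr2b: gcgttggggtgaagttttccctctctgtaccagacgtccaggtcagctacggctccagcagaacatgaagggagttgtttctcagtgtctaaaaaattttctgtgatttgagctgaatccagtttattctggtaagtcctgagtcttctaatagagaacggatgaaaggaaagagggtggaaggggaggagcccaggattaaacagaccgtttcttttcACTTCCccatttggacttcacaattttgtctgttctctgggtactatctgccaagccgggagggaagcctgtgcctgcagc
In the Fcgr1 window, GGAAGT at -61 to -56 is followed directly by GAGGAA at -55 to -50, both on the opposite strand. In the Fcgr4 window they overlap, at -24 to -19 and -22 to -17. The Fcgr2b window held GGAAGT at -31 to -26 and not GAGGAA. In addition the Fcgr1 window held TTCNNNGAA, the spacing of STAT sites, at -109 to -101, which 8.3% of windows held. GGAAGT stood in 4 of the 6 members that have a window in the table, GAGGAA in 5, and neither in Fcer1g. A match of letters is not a measured site.

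Fcgr1, the high-affinity receptor for IgG, was the member that differed most in every comparison except that of MASH OA with MASH livers. It had 7.84, 6.41 and 5.88 CPM in MASH OAL livers, 18.1, 11.8, 13.1 and 22.8 CPM in MASH OA livers, 11.7, 13.4 and 12.5 CPM in MASH livers, and 3.25, 3.73, 2.09 and 2.27 CPM in CD livers. No library of 1 of the groups MASH OAL, MASH and CD reached into another, while the MASH OA libraries spread from within the MASH range to above it. Fcgr1 was 4.43-fold higher in MASH than in CD livers (log2 fold change 2.15 ± 0.24 (SE), adjusted p = 3.88e-05). In MASH OAL livers it was 2.45-fold lower than in MASH OA livers (log2 fold change -1.29 ± 0.23 (SE), adjusted p = 0.00552), and still 2.37-fold higher than in CD livers (log2 fold change 1.25 ± 0.24 (SE), adjusted p = 0.00535).

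Fcgr3, a low-affinity activating receptor, had 14.2, 12.1 and 10.7 CPM in MASH OAL livers, 29.7, 19.6, 19.2 and 34.2 CPM in MASH OA livers, 19.2, 19.9 and 17.3 CPM in MASH livers, and 12.2, 9.43, 7.53 and 7.74 CPM in CD livers. MASH OA replicates 1 and 4 lay above all other libraries, and 1 CD library lay within the MASH OAL range. Fcgr3 was 2.04-fold higher in MASH than in CD livers (log2 fold change 1.03 ± 0.21 (SE), adjusted p = 0.00285) and 2.09-fold lower in MASH OAL than in MASH OA livers (log2 fold change -1.06 ± 0.22 (SE), adjusted p = 0.00888). Its counts were fractional in 12 of 14 libraries, whereas those of the other 7 members were whole. Of its 50-base transcript runs 10.2% also occur in Fcgr2b, so reads can be split between these genes, and no other pair of members shares such a run. The longest run that their coding sequences share, 129 bases on chromosome 1, is shown because reads that lie wholly within it cannot be assigned to either gene.
Fcgr3 and Fcgr2b: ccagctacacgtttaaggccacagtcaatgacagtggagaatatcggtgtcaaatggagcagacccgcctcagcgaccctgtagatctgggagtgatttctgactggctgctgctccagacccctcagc

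Fcgr4, a receptor for IgG2a and IgG2b of mice, was the least regular member. It had 16, 8.999 and 4.43 CPM in MASH OAL livers, 18.3, 15.6, 9.24 and 27.4 CPM in MASH OA livers, 13.7, 15.1 and 11.1 CPM in MASH livers, and 5.47, 7.59, 4.83 and 4.47 CPM in CD livers. The MASH OAL libraries reached from below every CD library to above every MASH library. Fcgr4 was 2.38-fold higher in MASH than in CD livers (log2 fold change 1.25 ± 0.39 (SE), adjusted p = 0.0263). That call was lost without CD replicate 1, 3 or 4 or MASH replicate 2 or 3 (adjusted p up to 0.0738). Between MASH OAL and MASH OA livers its difference was -0.84 on the log2 scale, with a 95% interval of -1.70 to 0.01 and adjusted p = 0.163. Among the MASH OAL libraries, replicate 1 was highest and replicate 4 lowest in 8 of 8 members, not only in Fcgr4. The 8 Kupffer cell markers had the same order, with sums of 727.7, 501 and 209 CPM in replicates 1, 2 and 4. So had the monocyte sum, but it was mostly Fn1, a gene that hepatocytes also make. Fn1 averaged 1506 ± 418 CPM (SD) in MASH OAL livers, against 28.9 to 47.1 CPM for the other 11 monocyte markers summed. The pan-macrophage and hepatocyte sums had this order as well, the first at 688, 649.5 and 592.8 CPM. The lipid-associated macrophage markers ran the other way, at 269, 297 and 489.5 CPM. The neutrophil markers summed to 72.9, 6.64 and 6.80 CPM. The part of these cell types in the Fcgr4 values was not tested.

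Fcgr2b, the inhibitory receptor, is not a member and serves as a contrast within the family. It had 56.9, 57.9 and 62.9 CPM in MASH OAL livers, 54.9, 69.7, 55.7 and 53.5 CPM in MASH OA livers, 64.6, 57.7 and 51.7 CPM in MASH livers, and 59.3, 62.4, 51.7 and 51.9 CPM in CD livers. The groups overlapped in all comparisons, and the estimates ran from 0.01 to 0.07 on the log2 scale, none of them past the threshold. The 95% interval for MASH against CD, -0.19 to 0.27, lay below the estimate of every activating receptor. The ratio of Fcgr3 to Fcgr2b in CPM per kb was 0.697 ± 0.132 in MASH OAL, 1.51 ± 0.557 in MASH OA, 1.08 ± 0.0823 in MASH and 0.543 ± 0.0956 in CD livers. That of Fcgr1 to Fcgr2b was 0.255 ± 0.04998, 0.648 ± 0.249, 0.489 ± 0.07296 and 0.111 ± 0.0205 in MASH OAL, MASH OA, MASH and CD livers. The level of both ratios depends on the length used, since Fcgr2b has 5790 merged exonic bases but 3708 distinct runs of 50 bases in its protein-coding transcripts. Among the activating receptors, the ratio of Fcgr1 to Fcgr3 was 0.371, 0.356 and 0.3697 in MASH OAL livers and 0.179, 0.266, 0.186 and 0.196 in CD livers, with 0.407, 0.405, 0.459 and 0.446 in MASH OA and 0.409, 0.453 and 0.487 in MASH livers. It was lower in every MASH OAL library than in every MASH OA and MASH library, and higher than in every CD library. These ratios were not tested.

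**Figure D2:**
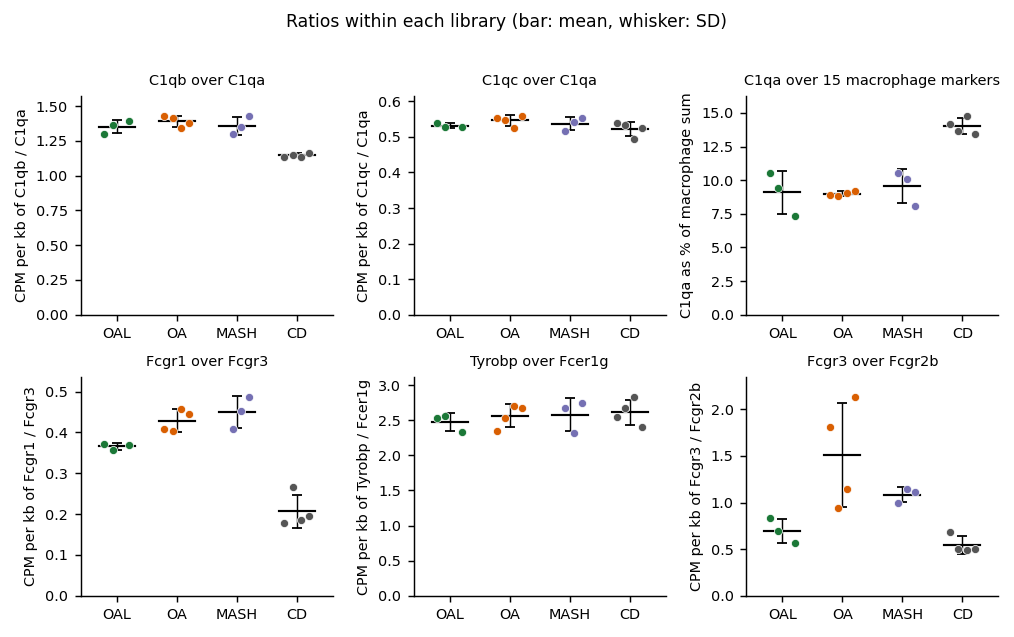
Ratios within each library, in CPM per kb for gene pairs and in percent for C1qa over the summed CPM of 15 macrophage markers, with the mean and SD per group. C1qb over C1qa and C1qa over the macrophage markers separate the CD libraries from all others, and Fcgr1 over Fcgr3 also sets the MASH OAL libraries below the MASH OA and MASH libraries.

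Fcer1g, the adaptor that the activating Fc gamma receptors need at the cell surface, had 12.1, 8.66 and 7.804 CPM in MASH OAL livers, 22.4, 16.5, 14.2 and 21.5 CPM in MASH OA livers, 12.8, 15.7 and 14.8 CPM in MASH livers, and 6.07, 5.78, 3.93 and 4.298 CPM in CD livers. Tyrobp had 23.4, 16.9 and 13.9 CPM in MASH OAL livers, 40.1, 31.8, 29.4 and 43.9 CPM in MASH OA livers, 26.2, 27.7 and 31.1 CPM in MASH livers, and 11.8, 11.8, 8.48 and 7.89 CPM in CD livers. In both genes the 4 groups kept to the order MASH OA, MASH, MASH OAL and CD by mean, no CD library reached any other group, and MASH OA overlapped MASH. The ratio of Tyrobp to Fcer1g in CPM per kb was 2.48 ± 0.125 in MASH OAL, 2.56 ± 0.164 in MASH OA, 2.58 ± 0.234 in MASH and 2.61 ± 0.18 in CD livers, and the ranges of all groups overlapped. Fcer1g was 2.88-fold and Tyrobp 2.84-fold higher in MASH than in CD livers (log2 fold changes 1.53 ± 0.20 (adjusted p = 0.000129) and 1.5 ± 0.20 (adjusted p = 0.000131)). In MASH OAL against MASH OA livers the log2 fold changes were -0.97 ± 0.20 (adjusted p = 0.00923) for Fcer1g and -1.01 ± 0.20 (adjusted p = 0.00786) for Tyrobp. Hcst, the related adaptor DAP10, was low in all groups, at 0.293 ± 0.235 CPM in MASH OAL, 0.582 ± 0.0704 CPM in MASH OA, 0.405 ± 0.204 CPM in MASH and 0.212 ± 0.1103 CPM in CD livers, and passed in no comparison.

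Set against all tested genes, the diet comparison called 8 of 8 members higher, where 20.4% of genes were called higher in MASH than in CD livers. In 8 of 8 the libraries did not overlap, against 22.5% of genes higher without overlap. The median log2 fold change of the members was 1.3 and that of all genes 0.006. With groups from the treatment tags all 8 remained called, and so they did without both libraries whose labels disagree.

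MASH OAL livers had lower levels than MASH OA livers in 7 of 8 members past the threshold, where 8.89% of genes were called lower, and 7 lay below without overlap, against 14.2% of genes. The members had a median log2 fold change of -1.0, and that of all genes -0.015. C18:1-leucine differs from C18:1 by the leucine joined to the fatty acid. The labels give the same number of weeks for both compounds and no dose, so whether the doses matched is not known. This was the only pair of compounds compared. The 7 calls held without both libraries whose labels disagree (7 of 8, with 3.08% of genes called in either direction), and none of the 8 was called with groups from the treatment tags, where no gene of the table was. Both settings leave only replicates 2 and 4 in MASH OAL, and the tags count MASH OAL replicate 1 as MASH OA. No member's estimate changed sign in any alternative of this comparison.

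No member passed the threshold in MASH OAL against MASH livers, a comparison in which edgeR called 0.0638% of genes lower. At an unadjusted p under 0.05 stood 7 of the 8, against 18.1% of all genes, and the libraries of the same number of members did not overlap, against 12.0% of genes lower without overlap. The estimates ran from -0.9 for Fcgr1 (95% interval -1.43 to -0.37, adjusted p = 0.102) to -0.44 for Fcgr4 (95% interval -1.34 to 0.47). C1qb averaged 83.05 ± 17.8 CPM in MASH OAL livers and 131 ± 5.71 CPM in MASH livers (SD, n = 3 each), and Tyrobp 18.1 ± 4.82 CPM and 28.3 ± 2.52 CPM in the same groups. Of 15 pan-macrophage markers 1 was lower in that comparison, and of 10 lipid-associated macrophage markers 2, and their part was not tested. DESeq2 called C1qa, C1qb and Fcgr1 lower, where it called 6.03% of genes in either direction, and limma voom called Fcgr1, where it called 3.83%.

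MASH OA livers did not differ from MASH livers past the threshold in any member, and edgeR called 0.0% of genes in either direction. None of the 8 had an unadjusted p under 0.05, against 6.18% of genes, and DESeq2, which called 0.0191% of genes, and limma voom, which called 0.0%, called no member. The estimates were above 0 for all 8, from 0.3 for C1qa to 0.45 for Fcgr3 (95% interval 0.00 to 0.91), as were those of 50.7% of genes. C1qb averaged 167 ± 33.1 CPM in MASH OA and 131 ± 5.71 CPM in MASH livers, with 95% limits of -0.05 to 0.74 on the log2 difference. MASH OA replicate 4 was the highest of all 14 libraries in 7 members and replicate 1 in the other, Fcer1g, while replicate 3 was the lowest of its group in 7. The comparisons of each compound with MASH livers use the same 3 MASH libraries.

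MASH OAL livers remained above CD livers in 4 of 8 members, where 10.2% of genes were called higher. These were Fcgr1, Fcer1g (log2 fold change 0.92 ± 0.20 (SE), adjusted p = 0.0107), Tyrobp (log2 fold change 0.86 ± 0.20 (SE), adjusted p = 0.0145) and C1qb (log2 fold change 0.68 ± 0.18 (SE), adjusted p = 0.0285). Fcgr1, Fcer1g and Tyrobp also did not overlap between the groups, against 16.8% of genes. The other 4 had estimates of 0.45 for C1qa, 0.47 for C1qc, 0.42 for Fcgr3 and 0.81 for Fcgr4. Without MASH OAL replicate 1, the highest library of its group in 8 of 8 members, only Fcgr1 and Fcer1g were called. The same 2 were called without both libraries whose labels disagree. With groups from the treatment tags none was called. This comparison and that of MASH with CD livers share the 4 CD libraries.

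**Figure D3:**
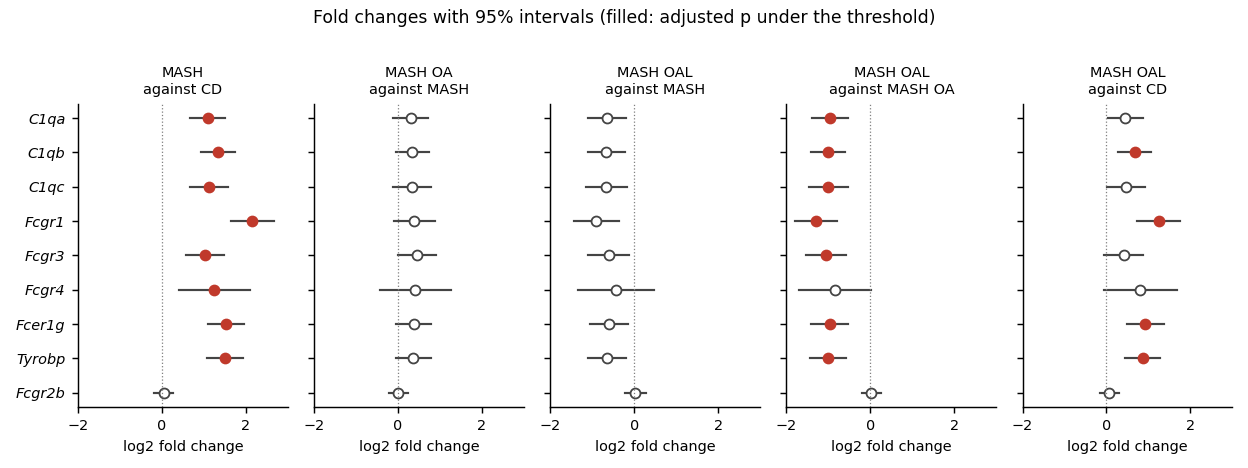
Log2 fold changes of the 8 genes and of Fcgr2b with 95% intervals in the 5 comparisons. Filled points passed the adjusted p threshold of 0.05, which were 8 members in MASH against CD, 7 in MASH OAL against MASH OA and 4 in MASH OAL against CD.

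The genes around the 8 members were read in lists, against the share of all tested genes called. In MASH against CD livers 20.4% of genes were called higher and 15.1% lower, and in MASH OAL against MASH OA livers 7.34% higher and 8.89% lower. With groups from the treatment tags, no gene of any list was called between MASH OAL and MASH OA livers. Without both libraries whose labels disagree, the counts of that comparison were smaller in most lists and are given with most of those described, while in MASH against CD livers no list count moved by more than 1. Counts without MASH OAL replicate 2, the library with the high pancreas markers, were also smaller in most lists.

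Of 21 tested receptors that pair with ITAM adaptors, 18 were higher in MASH than in CD livers and none lower, with a median log2 fold change of 2.22. Trem2, a lipid-sensing receptor that pairs with Tyrobp, had 15.8 against 0.729 CPM in MASH against CD livers (log2 fold change 4.44 ± 0.42 (SE), adjusted p = 1.80e-05). Clec7a, the beta-glucan receptor Dectin-1, had 33.3 against 4.06 CPM (log2 fold change 3.04 ± 0.24 (SE), adjusted p = 7.15e-06), and Cd300lb had 7.603 against 0.911 CPM (log2 fold change 3.06 ± 0.25 (SE), adjusted p = 6.86e-06). Between MASH OAL and MASH OA livers 9 of the 21 were lower and none higher, against 3 of 21 without both libraries whose labels disagree and 3 of 22 without MASH OAL replicate 2. Clec7a had 14.7 against 41.8 CPM there (log2 fold change -1.51 ± 0.23 (SE), adjusted p = 0.00331) and Cd300lb 3.53 against 9.02 CPM (log2 fold change -1.35 ± 0.23 (SE), adjusted p = 0.00455). Both were also called without both libraries (adjusted p = 0.0368 for Clec7a and 0.0395 for Cd300lb, edgeR).

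Of 33 genes of ITAM signalling, 23 were higher in MASH than in CD livers and none lower. Syk, the kinase that binds phosphorylated ITAMs, had 15.9, 12.6 and 9.84 CPM in MASH OAL livers, 29.7, 27.1, 20.4 and 32.2 CPM in MASH OA livers, 23.6, 23.6 and 20.98 CPM in MASH livers, and 9.87, 9.07, 7.099 and 7.09 CPM in CD livers. The MASH libraries lay above all CD libraries, and the MASH OAL libraries below all MASH and MASH OA libraries. Its log2 fold change was 1.46 ± 0.18 (adjusted p = 8.50e-05) in MASH against CD, -1.1 ± 0.18 (adjusted p = 0.00428) in MASH OAL against MASH OA and -0.83 ± 0.19 (adjusted p = 0.0755) in MASH OAL against MASH livers. Plcg2, the phospholipase downstream of Syk, had 5.83 against 2.08 CPM in MASH against CD livers (log2 fold change 1.49 ± 0.19 (SE), adjusted p = 0.000114), and Pik3cg, a catalytic PI3-kinase subunit, had 3.17 against 1.02 CPM (log2 fold change 1.63 ± 0.18 (SE), adjusted p = 3.39e-05). In MASH OAL against MASH OA livers 22 of the 33 were lower and 2 higher, against 15 lower without both libraries whose labels disagree and 12 without MASH OAL replicate 2. The integrin-binding adaptor Fermt3 fell (log2 fold change -1.12 ± 0.17 (SE), adjusted p = 0.00329), as did Plcg2 (log2 fold change -1.13 ± 0.19 (SE), adjusted p = 0.00452). The 2 that rose were Tec, a kinase (log2 fold change 0.29 ± 0.08 (SE), adjusted p = 0.0297), and Plcg1, a phospholipase found in many cell types (log2 fold change 0.24 ± 0.08 (SE), adjusted p = 0.0491). Without both libraries Syk, Fermt3 and Plcg2 were called (adjusted p = 0.0253, 0.0249 and 0.0363, edgeR), and Tec and Plcg1 were not (adjusted p = 0.171 and 0.196).

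The 6 tested subunits and partners of the phagocyte oxidase, which makes superoxide after Fc receptor engagement, were all higher in MASH than in CD livers and all lower in MASH OAL than in MASH OA livers. All 6 were also lower there without both libraries whose labels disagree, and 5 without MASH OAL replicate 2. Cyba, the p22phox membrane subunit, had 24.2 against 7.39 CPM in MASH against CD livers (log2 fold change 1.71 ± 0.16 (SE), adjusted p = 1.36e-05) and 15.1 against 31.2 CPM in MASH OAL against MASH OA livers (log2 fold change -1.05 ± 0.16 (SE), adjusted p = 0.00329). Cybb, the catalytic gp91phox subunit, had 55.2 against 17.8 CPM (log2 fold change 1.63 ± 0.21 (SE), adjusted p = 0.000123) and 33.5 against 71.5 CPM (log2 fold change -1.09 ± 0.21 (SE), adjusted p = 0.00777) in these comparisons.

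Of 25 tested ITIM receptors and phosphatases, 20 were higher in MASH than in CD livers and 1 lower, and 15 were lower in MASH OAL than in MASH OA livers. That count was 8 without both libraries whose labels disagree and 10 without MASH OAL replicate 2, with Inpp5d and Sirpa called in both. Inpp5d, the lipid phosphatase SHIP1 that Fcgr2b recruits, had 15.3 against 5.24 CPM in MASH against CD livers (log2 fold change 1.55 ± 0.14 (SE), adjusted p = 1.04e-05) and 10.3 against 20.1 CPM in MASH OAL against MASH OA livers (log2 fold change -0.96 ± 0.14 (SE), adjusted p = 0.00304). Sirpa, the receptor for CD47, had 72.2 against 15.96 CPM (log2 fold change 2.18 ± 0.21 (SE), adjusted p = 1.88e-05) and 43.1 against 100.1 CPM (log2 fold change -1.22 ± 0.21 (SE), adjusted p = 0.00484). The gene of this list that fell with the diet was Ceacam1, an adhesion receptor also made by hepatocytes (log2 fold change -0.55 ± 0.12 (SE), adjusted p = 0.00385). Of 8 other tested Fc receptors, a share near that of all genes was called: 2 were higher in MASH than in CD livers, the cytosolic antibody receptor Trim21 (log2 fold change 0.35 ± 0.09 (SE), adjusted p = 0.00816) and Fcrla (log2 fold change 1.09 ± 0.34 (SE), adjusted p = 0.0239), and 1 was lower, the polymeric immunoglobulin receptor Pigr (log2 fold change -0.63 ± 0.18 (SE), adjusted p = 0.0165). None of these 8 passed in MASH OAL against MASH OA livers.

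**Figure D4:**
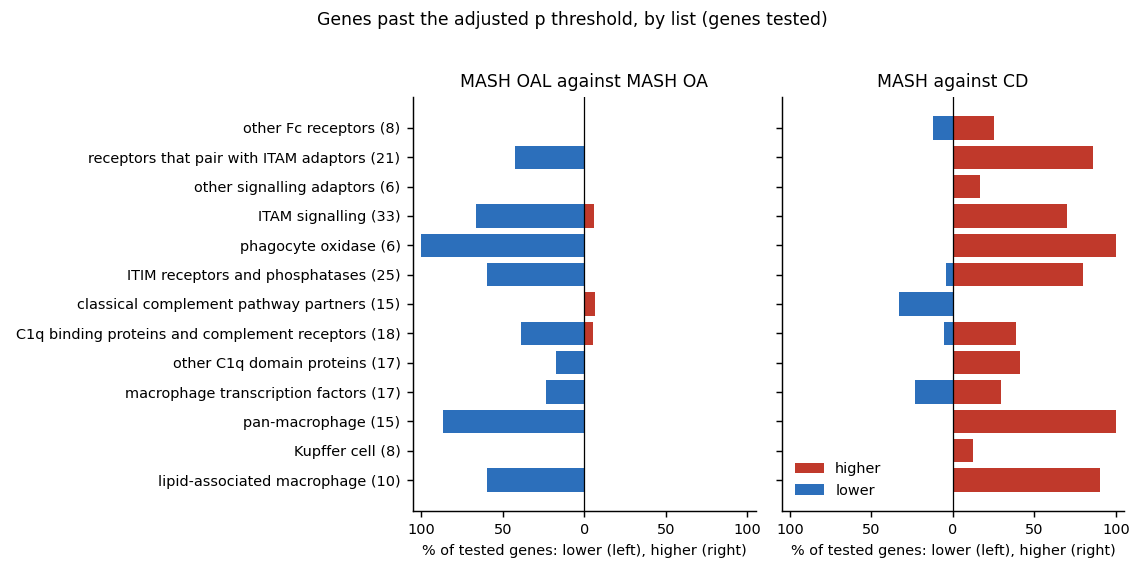
Share of the tested genes of each list past the adjusted p threshold, lower to the left and higher to the right, in MASH OAL against MASH OA and in MASH against CD livers, with the number of genes tested in brackets. The ITAM, oxidase and ITIM lists point to higher levels in MASH and lower levels in MASH OAL livers, while the classical complement partners were lower or did not pass in MASH livers.

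No plasma protein that C1q works with passed as higher with the diet. Of 15 tested classical complement pathway partners, none was higher in MASH than in CD livers and 5 were lower, where 15.1% of all genes were, with a median log2 fold change of -0.32. C1ra, the protease that C1q activates, had 238 against 309 CPM in MASH against CD livers (log2 fold change -0.38 ± 0.11 (SE), adjusted p = 0.0189), and C2, which activated C1s cleaves, had 80.3 against 126 CPM (log2 fold change -0.65 ± 0.15 (SE), adjusted p = 0.00507). C4a had 37.9 against 81.5 CPM (log2 fold change -1.11 ± 0.35 (SE), adjusted p = 0.0278), and it has a close paralog, C4b, with which reads can be shared. Between MASH OAL and MASH OA livers 1 of the 15 was higher, the lectin pathway protease Masp2 (log2 fold change 0.34 ± 0.09 (SE), adjusted p = 0.0247), which did not pass without both libraries whose labels disagree (adjusted p = 0.198, edgeR). Of 17 tested genes with a C1q domain outside the C1q chains, 7 were higher in MASH than in CD livers, led by the matrix protein Emilin1 (log2 fold change 1.32 ± 0.20 (SE), adjusted p = 0.000311), and 3 were lower in MASH OAL than in MASH OA livers, against 1 without both libraries and 0 without MASH OAL replicate 2.

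Among 18 tested C1q binding proteins and complement receptors, 7 were higher in MASH than in CD livers and 1 lower, and 7 were lower and 1 higher in MASH OAL than in MASH OA livers. In the last comparison 3 were lower and none higher without both libraries whose labels disagree, and likewise without MASH OAL replicate 2, with Itgax and Lair1 called in both. Itgax, the alpha chain of complement receptor 4, had 14.6 against 0.742 CPM in MASH against CD livers (log2 fold change 4.3 ± 0.26 (SE), adjusted p = 9.81e-07) and 8.02 against 21.96 CPM in MASH OAL against MASH OA livers (log2 fold change -1.45 ± 0.22 (SE), adjusted p = 0.00329). Lair1, an inhibitory receptor that binds collagen and C1q, had 9.35 against 3.26 CPM (log2 fold change 1.52 ± 0.23 (SE), adjusted p = 0.000282) and 6.05 against 13.04 CPM (log2 fold change -1.11 ± 0.23 (SE), adjusted p = 0.00872). C1qbp, a largely mitochondrial C1q-binding protein, was lower in MASH livers (log2 fold change -0.22 ± 0.08 (SE), adjusted p = 0.0401), and Cd59a, an inhibitor of the membrane attack complex, was higher in MASH OAL livers (log2 fold change 0.24 ± 0.07 (SE), adjusted p = 0.0462).

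Of 17 macrophage transcription factors, 5 were higher and 4 lower in MASH than in CD livers, and 4 were lower in MASH OAL than in MASH OA livers. The last count was also 4 without both libraries whose labels disagree, and 2 without MASH OAL replicate 2, with Spi1 (adjusted p = 0.0322 and 0.0488, edgeR) and Irf8 called in both. Spi1, which encodes PU.1, had 14.03, 9.52 and 7.45 CPM in MASH OAL livers, 23.9, 24.4, 14.99 and 26.98 CPM in MASH OA livers, 16.3, 18.1 and 18.8 CPM in MASH livers, and 6.01, 7.32, 4.73 and 4.89 CPM in CD livers. It was higher in MASH than in CD livers (log2 fold change 1.63 ± 0.23 (SE), adjusted p = 0.000216) and lower in MASH OAL than in MASH OA livers (log2 fold change -1.12 ± 0.23 (SE), adjusted p = 0.00916). Spi1 did not pass in MASH OAL against MASH livers (log2 fold change -0.78 ± 0.24 (SE), adjusted p = 0.132). Its libraries lay lower there without overlap, as did those of 12.0% of all tested genes. Irf8, another macrophage factor, was higher in MASH than in CD livers (log2 fold change 1.35 ± 0.17 (SE), adjusted p = 8.50e-05) and lower in MASH OAL than in MASH OA livers (log2 fold change -0.99 ± 0.17 (SE), adjusted p = 0.00452). Among those that fell with the diet were Bhlhe40 (log2 fold change -0.94 ± 0.22 (SE), adjusted p = 0.00602), Bhlhe41 (log2 fold change -1.3 ± 0.47 (SE), adjusted p = 0.0459) and Cebpa (log2 fold change -0.35 ± 0.12 (SE), adjusted p = 0.0314).

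Markers of several cell types that carry the 8 genes moved with them, and their part in the results was not tested. All 15 pan-macrophage markers were higher in MASH than in CD livers, and 13 were lower in MASH OAL than in MASH OA livers, or 8 both without the 2 libraries whose labels disagree and without MASH OAL replicate 2. Their summed level was 592.8 to 688 CPM in MASH OAL, 1047 to 1572 CPM in MASH OA, 932 to 1032 CPM in MASH and 237 to 389 CPM in CD livers, and none was at 0 in any group. Coro1a and Itgam of these markers also stand in the lists above. Of 8 Kupffer cell markers 1 was higher in MASH than in CD livers and none passed in MASH OAL against MASH OA, with sums of 209 to 728 CPM in MASH OAL, 494 to 895 CPM in MASH OA, 563 to 883 CPM in MASH and 422 to 682 CPM in CD livers. Of 10 lipid-associated macrophage markers 9 were higher in MASH than in CD livers and 6 lower in MASH OAL than in MASH OA livers (2 without both libraries whose labels disagree), with sums of 269 to 489.5 CPM in MASH OAL, 517 to 1008 CPM in MASH OA, 414 to 910.1 CPM in MASH and 67.2 to 131 CPM in CD livers.

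As a percentage of the pan-macrophage sum, to which the members do not contribute, C1qa stood at 9.101 ± 1.598 in MASH OAL, 8.99 ± 0.182 in MASH OA, 9.58 ± 1.29 in MASH and 14.03 ± 0.5799 in CD livers (SD). The 4 CD libraries, at 14.2, 13.7, 14.8 and 13.5, lay above the 10 others. Fcgr1 ran the other way, at 1.04 ± 0.0868 in MASH OAL, 1.28 ± 0.173 in MASH OA, 1.29 ± 0.125 in MASH and 0.906 ± 0.0579 in CD livers, and Fcer1g stayed between 1.47 ± 0.15 in MASH OA and 1.62 ± 0.118 in CD livers. C1qb, C1qc and Fcgr3 shared the C1qa pattern, with every CD library above all others, and for Fcgr1 every CD library lay below all others. These shares were not tested.

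The 12 monocyte markers counted 10 higher in MASH than in CD livers and 4 lower in MASH OAL than in MASH OA livers, the last count being 1 without both libraries whose labels disagree. Fn1, which hepatocytes also make, was by far the most abundant of them, at 1506 ± 418 CPM in MASH OAL, 1370 ± 169 CPM in MASH OA, 1419 ± 141 CPM in MASH and 1557 ± 238 CPM in CD livers (SD), and passed in no comparison. The other 11 summed to 28.9 to 47.1 CPM in MASH OAL, 51.97 to 78.3 CPM in MASH OA, 47.04 to 54.8 CPM in MASH and 12.1 to 19.7 CPM in CD livers. Of 11 dendritic cell markers 4 were higher in MASH than in CD livers and 1 lower in MASH OAL than in MASH OA livers, near the 8.89% of all genes. The last count was also 1 without both libraries whose labels disagree. Hepatocyte markers ran the other way, with 6 of 7 lower in MASH than in CD livers and 4 of 7 higher in MASH OAL than in MASH OA livers (none without both libraries whose labels disagree), at sums of 56070 to 79060 CPM in MASH OAL, 39960 to 48740 CPM in MASH OA, 50130 to 56410 CPM in MASH and 75990 to 98400 CPM in CD livers. Of 8 sinusoidal endothelial cell markers, a cell type known for Fcgr2b, 1 was higher and 1 lower in MASH than in CD livers. Fcgr2b is itself among these markers.

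NK cells, neutrophils and mast cells also use Fcer1g, and NK cells Tyrobp. Of 11 tested T and NK cell markers 4 were higher in MASH than in CD livers and 3 lower in MASH OAL than in MASH OA livers (none without both libraries), at sums over 12 genes of 4.32 to 5.52 CPM in MASH OAL, 6.38 to 15.4 CPM in MASH OA, 7.76 to 8.38 CPM in MASH and 2.88 to 4.71 CPM in CD livers. Of 11 tested neutrophil markers 1 was higher in MASH than in CD livers and 1 lower in MASH OAL than in MASH OA livers. The last count was 2 of 9 without both libraries whose labels disagree. The neutrophil sum over 14 genes was 72.9 CPM in MASH OAL replicate 1, 6.64 and 6.80 CPM in the other 2 MASH OAL libraries, 16.0 to 32.5 CPM in MASH OA, 11.2 to 15.3 CPM in MASH and 4.20 to 11.5 CPM in CD livers, with Ly6g and Mpo at 0 in CD livers. Mast cell markers were at most 0.236 CPM in sum in any library, and none passed the filter.

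By likeness over the 14 libraries, measured as the root mean square difference of centred log2 CPM, the mean profile of the 8 genes lay nearest to Vav1 (0.102), Rac2 (0.104) and Syk (0.107), followed by Niban1, Apobr, Fyb1, Cd53, Aif1, Cd300a and Ptprc (0.119), against a median of 0.793 over all other genes. Vav1 had 7.70 ± 1.62 CPM in MASH OAL, 16.7 ± 3.15 CPM in MASH OA, 12.5 ± 1.08 CPM in MASH and 4.68 ± 1.18 CPM in CD livers. Among the members, C1qa and C1qc were the closest pair (0.0458), followed by Fcer1g and Tyrobp (0.0892). Fcgr1 stood farthest from the mean profile (0.350), nearest to Evl, Cyth4 and Sirpa, and next to it Fcgr4 (0.282), whose nearest named genes were Clec4a3 and Clec4a1. The libraries share their composition in these profiles, so the values are descriptive.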

How the data were processed

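Liver RNA of 14 libraries in 4 groups was analysed. Per the labels' protocols, RNeasy kits served for isolation and the NEBNext Ultra II kit for the libraries. The values are expected counts per gene as deposited by the authors. The submitters' processing notes name GRCm38, HTSeq and DESeq2 1.42.1, without the role of each, and strand was not stated, so a gene and its antisense partner cannot be told apart (Gm38204 shares 155 exonic bases with Fcgr2b). Fractional values (5.09% to 5.76% per library) were rounded. Genes passed edgeR's filterByExpr (minimum count 10, minimum total 15, smallest group 3). All 14 libraries were fitted together by group from the titles by edgeR's robust quasi-likelihood F test (two-sided; edgeR 4.0.16, R 4.3.3) after TMM scaling, with Benjamini-Hochberg adjustment over 15674 genes and a threshold of 0.05. CPM uses TMM-scaled totals, and CPM per kb the merged exons of GENCODE M21. Likeness used a prior count of 2.

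The members and the lists were chosen with earlier results of these data known, and the motifs after the sequences were seen, so counts over lists are descriptions. Named genes were the members, Fcgr2b, Hcst, Syk and Spi1, and up to 4 genes per list with the smallest p, plus those past the threshold against their list's direction. Of these a part is printed, and some named genes are not reported here. Motifs were searched on both strands of RefSeq promoter windows, which 6 of 8 members have. C1qa and Tyrobp have none. Replicate pairs differed by 27.4 to 173.9 in chi-square per gene, so none was counted as 1 library deposited again. Code was tested on simulated data. Alternatives were DESeq2 1.42.0, limma voom (limma 3.58.1), relative log expression scaling, no filter, truncated counts, the compared groups alone, groups from the treatment tags, leaving out both libraries whose labels disagree, leaving out each library in turn, and a block for the replicate number. The authors' deposited comparison tables were not used, since their group letters have no key in the sources used here.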

Additional observations from a re-analysis of the deposited data

Results flagged for a closer look

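Some values lay apart from the other libraries of their group by Dixon's criterion at the 95% level. Only the groups of 4 libraries, MASH OA and CD, could be checked, and MASH OAL and MASH, with 3 libraries each, were not. In all, 88 groups of values were checked and 8 values passed, where chance gives about 1 in 20. Their causes were not tested. In MASH OA replicate 2, Fcgr2b was at 69.7 CPM against 53.5 to 55.7 CPM in the other MASH OA libraries, and 3 marker sums of the same library also lay apart: the neutrophil markers at 32.5 CPM against 16.0 to 16.6 CPM, the sinusoidal endothelial cell markers at 437 CPM against 354 to 358 CPM, and the erythroid markers at 412 CPM against 159 to 192 CPM. Fcgr2b is itself part of the endothelial sum. In MASH OA replicate 1, Tyrobp was 3.01% of the pan-macrophage sum against 2.79% to 2.81%. In CD replicate 1, the ratio of Fcgr3 to Fcgr2b was 0.686 against 0.486 to 0.504, and the dendritic cell markers summed to 21.4 CPM against 16.8 to 16.9 CPM. In CD replicate 2, the pancreas markers summed to 218 CPM against 5.49 to 7.34 CPM.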

How the results depend on the processing

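Each result was recomputed under 23 alternatives. In MASH against CD livers the number of members called stayed at 8, or 7 where Fcgr4 was lost (adjusted p up to 0.0738, also with no filter on low counts). The number called in MASH OA against MASH livers was 0 in every alternative run. 2 estimates there changed sign with groups from the treatment tags, to -0.00344 for Fcgr1 and -0.03 for Fcer1g. In MASH OAL against MASH livers the 0 members called became 3 with DESeq2 and 1 with limma voom, and the 0 genes called of the 10 pathway lists became 27 with DESeq2, 18 with limma voom, 2 with the compared groups alone, 1 with no filter and 0 to 2 with a library left out. In MASH OAL against MASH OA livers the 7 members called became 0 with groups from the treatment tags and stayed 7 with any library left out. The 68 list genes called there became 0 with those groups, 38 without both libraries whose labels disagree, and 35 to 73 with a library left out (35 without MASH OAL replicate 2, 44 without MASH OA replicate 1 or 4). In MASH OAL against CD livers the 4 members called became 0 with groups from the treatment tags, 2 without both libraries and 2 to 4 with a library left out, of which C1qb was lost without CD replicate 3 or 4 or MASH OAL replicate 1 or 2 and Tyrobp without MASH OAL replicate 1. It became 6 with limma voom, which added C1qa and C1qc, and 3 with the compared groups alone, which lost C1qb. The 52 list genes called there became 16 with groups from the tags. Leaving out a library reduces the samples in the fit, and for the other alternatives the cause was not tested. The labels name no pairing by replicate number. Of 18 pairs with the same number, 6 had a correlation of deviations over 0.1 (range -0.245 to 0.423). Pairs with different numbers ranged from -0.515 to 0.498. With the replicate number as a block the members called were 8, 0, 0, 7 and 4 in the 5 comparisons, as without it, and 3 list genes were called in MASH OAL against MASH livers. Over the whole table, the number of genes called in MASH OAL against MASH OA livers was 2544, and it became 0 with groups from the tags, 487 without both libraries, 1621 with the compared groups alone, 4459 with limma voom and 756 to 3043 with a library left out. The 2276 genes called in MASH OAL against CD livers became 653 with groups from the tags and 976 to 2427 with a library left out. The 11 called in MASH OAL against MASH livers became 945 with DESeq2, 601 with limma voom, 51 with the compared groups alone, 35 with the block, 30 with no filter, 0 with groups from the tags or without both libraries, and 0 to 61 with a library left out. No alternative moved the all-gene median beyond -0.02 or 0.02.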

Other observations

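Stellate cell markers were also measured beside the 8 genes. Of 8 markers 6 were higher in MASH than in CD livers, among them Pdgfrb, the platelet-derived growth factor receptor of mesenchymal cells (log2 fold change 1.81 ± 0.31 (SE), adjusted p = 0.000888), and Dcn, a small matrix proteoglycan (log2 fold change 0.79 ± 0.22 (SE), adjusted p = 0.0154). None of the 8 passed in MASH OAL against MASH OA livers, where the sums were 490.4 to 602 CPM in MASH OAL and 439.8 to 779 CPM in MASH OA livers. All 6 tested erythroid markers were higher in MASH OAL than in MASH OA livers, among them Alas2, the first enzyme of heme synthesis in red cells (log2 fold change 0.64 ± 0.13 (SE), adjusted p = 0.00777), with sums of 355 to 676 CPM in MASH OAL and 159 to 412 CPM in MASH OA livers. None of the 6 was called without both libraries whose labels disagree, and 1 without MASH OAL replicate 2.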
